A study of Mus musculus with 16 samples.

Results

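The respiratory chain of the inner mitochondrial membrane was followed through the nuclear genes for the subunits of its complexes I, II, III and IV and of the ATP synthase, complex V, in mouse atrial tissue after myocardial infarction (MI). Members were all rows of the deposited expression table whose annotation gave exactly 1 gene symbol and whose symbol began with Nduf and a subunit letter and number, was Sdha, Sdhb, Sdhc, Sdhd or Cyc1, or began with Uqcr, with Cox4 to Cox8 and a letter from a to c, or with Atp5. Where a gene had several such rows, the row with the highest mean signal was kept. The rule found 84 of the 30145 genes with 1-symbol rows, 35 of them in complex I, 4 in complex II, 9 in complex III, 16 in complex IV and 20 in complex V. Its patterns followed symbols and not function. The 20 complex V genes thus included the pseudogenes Atp5c1-ps and Atp5l-ps1 and the near-identical copy Atp5l2. They also included Atp5sl, with the RefSeq symbol Dmac2, classed here as an assembly or regulatory protein and not as a subunit. The Nduf genes included Ndufa4, whose protein is known as a subunit of complex IV. Ndufa11 and Ndufb4 were not members because their rows carried several symbols.

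The arrays came from 10-week-old male wild-type C57BL/6 mice in 4 groups of 4. Sham-operated mice were the controls, with no time after surgery in their labels. The other groups had the left anterior descending coronary artery, which feeds the left ventricle, tied off, and atrial tissue was taken 1, 3 or 7 days later. The labels name no transgene or drug in any group, and none of them says whether an array held 1 animal or pooled animals, or whether the tissue was left or right atrium, so p-values measure the spread between these arrays.

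As background, complex I takes electrons from NADH and complex II from succinate, both pass them to coenzyme Q, complex III hands them to cytochrome c and complex IV to oxygen, and complex V makes ATP from the proton gradient that complexes I, III and IV build. The heart is among the tissues richest in mitochondria, and its muscle cells carry heart and skeletal muscle isoforms of several complex IV subunits where most other cells carry general isoforms. The mitochondrial genome encodes further core subunits, which were not measured here.

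All values are the deposited log2 signals, and a difference is the mean of an MI group minus the mean of sham on that log2 scale. The scale has a ceiling near 20, so a log2 difference was not turned into a fold. Of the 84 members, 82 passed the filter on low values (above the array's median over all rows on at least 4 of 16 arrays); 81 of these were above that median on all 16 arrays and Ndufa4l2 on 13. Cox6b2 and Cox7b2, testis isoforms of complex IV, did not pass. Ndufb9 of complex I had a mean above 19 (19.14) and was set apart, and the next lower member was Uqcrb at 18.14. The counts below therefore run over 81 members (34, 4, 9, 14 and 20 in complexes I to V). A gene was called lower or higher at a limma adjusted p under 0.05, with the adjustment over all 18420 genes tested.

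Arrays titled MI 1d 13 and MI 3d 31 stood apart from the others. The separation of positive from negative control probes, where 1 is complete and 0.5 is none, was 0.755 and 0.743 on them and 0.793 to 0.825 on the other 14, and MI 3d 31 had a median correlation of 0.935 with the other arrays of its group. The median of the negative controls was 4.87 and 4.93 on these arrays and at most 4.71 elsewhere. The other day 1 arrays also differed from sham in these measures: their separation was 0.793 to 0.804, below all sham arrays (0.812 to 0.821), and their negative-control medians were 4.69 to 4.71, against 4.47 to 4.53 in sham. The part of this shift in the day 1 differences was not tested. Each main count is therefore given with all arrays and without these arrays. The tissue label was checked on cardiomyocyte genes. In sham, Nppa, the atrial natriuretic peptide gene, averaged 19.93, the atrial sarcolipin gene Sln 17.97 and the atrial light chain gene Myl7 17.97. Of 13 atrial markers 2, Bmp10 and Nr2f1, lay below the negative-control median on every sham array. No ventricular marker did so, and the mean sham level was 10.25 over the 5 ventricular markers and 10.22 over the atrial ones. The check therefore does not show that the tissue was free of ventricle.

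Subunit genes of all 5 complexes were lower than sham 1 and 3 days after MI, and no member was called higher than sham on any day, against 24.9%, 23.5% and 14.9% of all genes called higher on days 1, 3 and 7. On day 1, 64 of 81 members were called lower, with a median difference of -0.94, against 22.2% of all genes called lower and a median of 0.06 over all genes. The day 3 count was 73 of 81 with a median of -1.15, against 20.2% of all genes and a median of 0.08. By day 7 it was 18 of 81 with a median of -0.61, against 9.92% of all genes and a median of -0.01. Without MI 1d 13 and MI 3d 31 the counts were 74, 75 and 72 of 81 against 24.7%, 20.9% and 19.3% of all genes, and the medians became -0.72, -0.78 and -0.61. The day 7 arrays were the same in both fits, and the 18 and 72 calls differ through the spread that all groups share in the fit. With all arrays 18 members were lower on all 3 days and 43 on days 1 and 3 but not 7; without both arrays, 70 were lower on all 3 days. The call counts moved with single arrays. The day 1 count fell to 27 of 81 without MI 1d 13 alone, against 16.9% of all genes. It fell to 34 to 40 without any 1 sham array or MI 1d 14 (35). The day 7 count was 53 of 81 without MI 3d 31 alone, against 15.9% of all genes. It was 9 to 11 without sham 2, sham 3, sham 4 or MI 7d 72, and 7 without MI 7d 74. For the fits given here without a share of all genes, that share was not computed. Whether other genes lost calls to the same extent was not tested.

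The 4 values of a group lay below all 4 sham values in 74 of 81 members on day 1, in 75 on day 3 and in 72 on day 7, against 24.2%, 20.5% and 18.4% of all genes. MI 1d 13 was the lowest day 1 array in 77 of 81 members and MI 3d 31 the lowest day 3 array in 76. The median over complex I members of the deviation from the sham mean was -0.09, 0.00, 0.03 and 0.02 on the sham arrays, -0.80, -0.54, -1.76 and -1.07 on MI 1d 11 to 14, -2.57, -0.79, -1.10 and -0.996 on MI 3d 31 to 34 and -0.76, -0.79, -0.54 and -0.92 on MI 7d 71 to 74. All 12 MI arrays were thus below all sham arrays, and the same held for the medians of complexes II, III, IV and V. Across complexes the smallest deviation of an MI array was that of complex IV on MI 3d 32, at -0.22, and the largest was that of complex II on MI 3d 31, at -3.01.

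**Figure D1:**
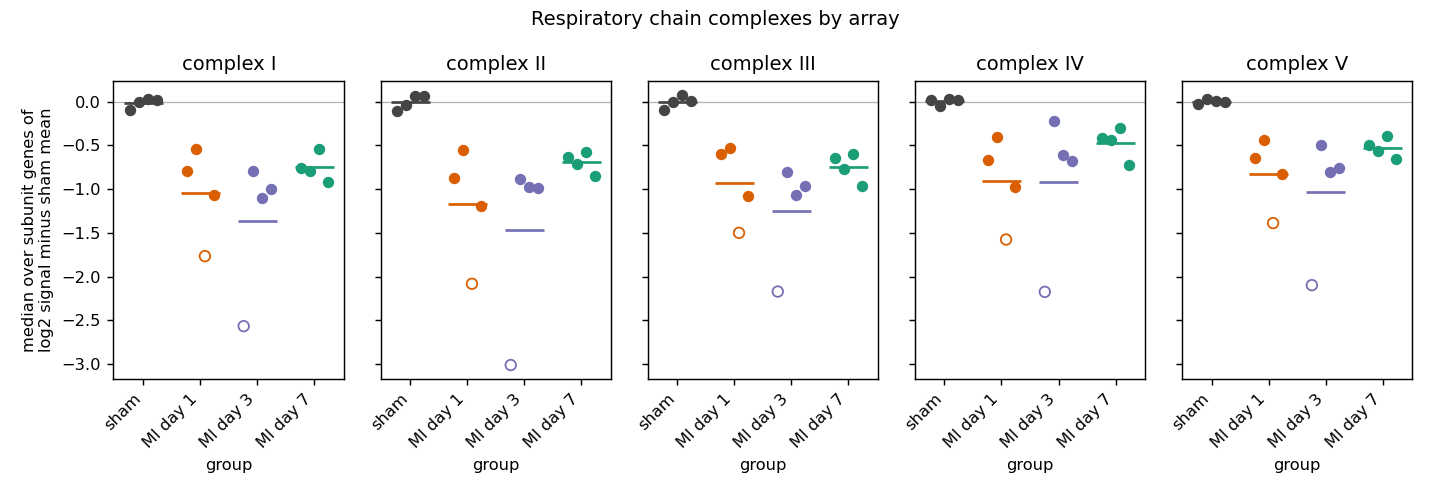
Median over the counted subunit genes of each complex of the log2 signal minus the sham mean (vertical axis), by group (horizontal axis). Each point is 1 array, bars are means of 4 arrays, and open points are MI 1d 13 and MI 3d 31, which lie below the other arrays of their groups in all 5 complexes (-1.76 and -2.57 in complex I), while every MI array lies below every sham array.

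**Figure D2:**
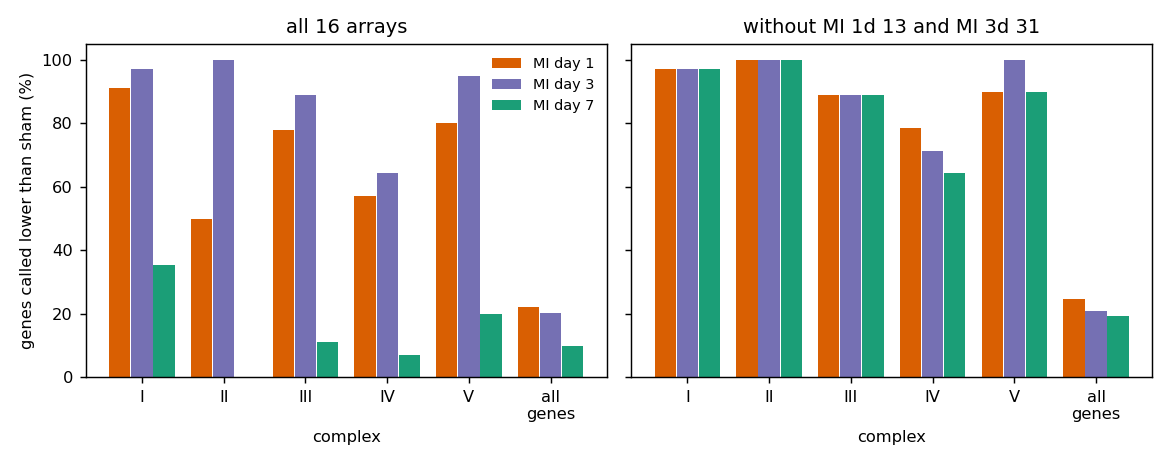
Percent of the counted subunit genes of each complex, and of all genes tested, called lower than sham on each MI day at a limma adjusted p under 0.05, with all arrays (left) and without MI 1d 13 and MI 3d 31 (right). The day 7 bars rise from 35.3% to 97.1% in complex I and from 9.92% to 19.3% over all genes when both arrays are left out.

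Complex I had the most members, and 31 of 34 fell on day 1 (median -1.03), 33 on day 3 (-1.39) and 12 on day 7 (-0.77); without both arrays 33 of 34 fell on each day, with medians of -0.81, -0.99 and -0.77. The arm that takes electrons from NADH includes Ndufv1, which binds the flavin that accepts them, and the iron-sulfur proteins Ndufs1 and Ndufs8. Of the 6 core subunits, 5 fell on day 1, 6 on day 3 and 1 on day 7, and 6 on each day without both arrays. Ndufs8 had log2 signals of 15.30, 15.19, 15.22 and 15.07 in sham, 13.84, 14.20, 12.08 and 13.16 on day 1, 10.51, 13.86, 13.48 and 13.38 on day 3 and 14.07, 13.96, 14.35 and 13.85 on day 7. Every MI array was below every sham array, and MI 1d 13 and MI 3d 31 were the lowest of their groups. Its difference was -1.88 (SE 0.60, adjusted p = 0.0206) on day 1, -2.39 (adjusted p = 0.00501) on day 3 and -1.14 (adjusted p = 0.194) on day 7, when it was not called. Without both arrays it was -1.47, -1.62 and -1.14, called on all 3 days.

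Ndufs1, the largest iron-sulfur subunit, stood at 15.94, 16.25, 16.23 and 16.30 in sham, 15.39, 15.64, 14.00 and 15.08 on day 1, 12.63, 15.07, 14.93 and 14.86 on day 3 and 15.30, 15.28, 15.69 and 15.31 on day 7. Groups did not overlap with sham on any day, and its day 1 difference of -1.16 just missed the threshold (adjusted p = 0.0517) while the day 3 difference of -1.81 passed it (0.0055). Ndufv1 changed by -0.96, -1.51 and -0.96 on the 3 days and was called on days 1 and 3. Without both arrays, Ndufs1 and Ndufv1 were called on all 3 days (-0.81, -1.23 and -0.79 for Ndufs1) and were also called lower on day 3 than on day 1.

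The largest fall in complex I was in an accessory subunit, Ndufa8, which has twin cysteine motifs and is imported into the intermembrane space. Its signals were 14.66, 14.75, 14.89 and 14.95 in sham, 13.17, 13.54, 11.47 and 12.64 on day 1, 10.62, 12.98, 12.65 and 12.70 on day 3 and 12.90, 13.11, 13.09 and 12.67 on day 7. The highest MI array lay well below the lowest sham array. The differences were -2.11, -2.58 and -1.87 (SE 0.47 each; adjusted p = 0.00278, 0.000593 and 0.0101), and Ndufa8 was called on each day in both fits. Ndufv3, a small subunit of the NADH-binding module, changed by -1.40, -1.56 and -0.98, called on each day. Among the 28 accessory subunits counted, 26 fell on day 1, 27 on day 3 and 11 on day 7, and 27 on each day without both arrays. Ndufa4l2, a paralog of Ndufa4 known to rise under hypoxia, was the 1 complex I member not called against sham on any day; its signals, 4.21 to 4.98, were close to the negative controls. Ndufb9, set apart, had signals of 19.42, 19.67, 19.59 and 19.55 in sham and lay between 18.80 and 19.31 on day 1, between 17.04 (MI 3d 31) and 19.24 on day 3 and between 19.19 and 19.24 on day 7.

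**Figure D3:**
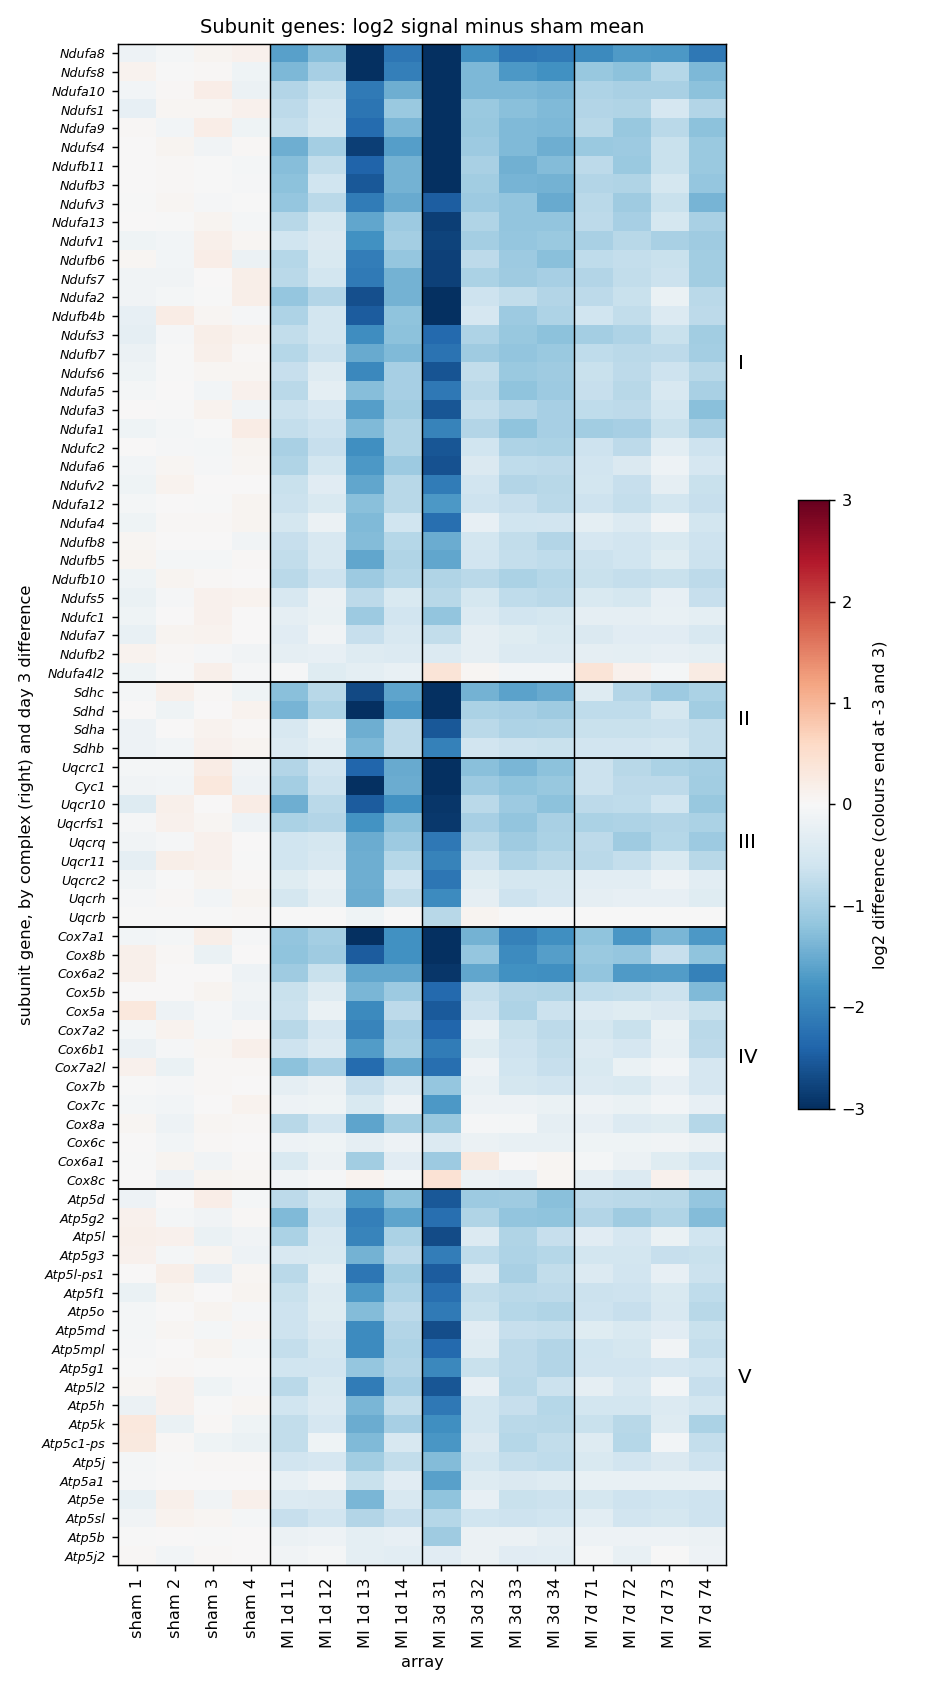
Log2 signal minus the sham mean for the 81 counted subunit genes (rows, grouped by complex I to V and ordered within each by the day 3 difference) on the 16 arrays (columns). Blue is below and red above the sham mean, colours end at -3 and 3, and the dark columns are MI 1d 13 and MI 3d 31; the top row of complex I is Ndufa8 (-2.58 on day 3) and its last row Ndufa4l2.

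Complex II, succinate dehydrogenase, is the 1 complex encoded wholly in the nucleus, and all 4 subunit genes fell on day 3 (median -1.53), 2 on day 1 (median -1.16) and 0 on day 7 (median -0.72), when the 4 differences lay between -0.83 and -0.60. Without both arrays all 4 were called on each day. The membrane anchors Sdhc and Sdhd, which hold the heme and the coenzyme Q site, were the pair called on day 1. Sdhd read 15.71, 15.58, 15.72 and 15.80 in sham, 14.30, 14.74, 12.44 and 13.97 on day 1, 11.63, 14.74, 14.69 and 14.62 on day 3 and 14.95, 14.93, 15.18 and 14.66 on day 7. Every MI array was below every sham array, and apart from MI 7d 74 the day 7 arrays lay above all those of days 1 and 3. Sdhc read 11.91, 12.14, 12.02 and 11.84, then 10.72, 11.16, 9.28 and 10.39, then 8.49, 10.56, 10.37 and 10.46, then 11.58, 11.10, 10.89 and 11.02 in the same order of groups. The Sdhc differences were -1.59, -2.01 and -0.83 (SE 0.44; adjusted p = 0.00938, 0.00195 and 0.195), and those of Sdhd were -1.84, -1.78 and -0.77 (SE 0.61; adjusted p = 0.0243, 0.0278 and 0.417).

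The catalytic subunits had smaller day 1 differences than the anchors. Sdha, the flavoprotein that oxidises succinate, had signals of 15.05, 15.22, 15.30 and 15.24 in sham, 14.72, 15.02, 13.75 and 14.42 on day 1, 12.67, 14.40, 14.27 and 14.31 on day 3 and 14.53, 14.55, 14.57 and 14.47 on day 7. Sdhb, the iron-sulfur protein, had 13.03, 13.08, 13.31 and 13.26, then 12.75, 12.88, 11.82 and 12.38, then 11.15, 12.61, 12.53 and 12.49, then 12.59, 12.60, 12.65 and 12.43. In both genes the 4 MI values of each day lay below the 4 sham values, though on day 1 the MI 1d 12 values came close to sham. The Sdha differences were -0.73, -1.29 and -0.68 and those of Sdhb -0.71, -0.97 and -0.60, and only day 3 passed the threshold with all arrays (adjusted p = 0.00602 and 0.0143). The difference between anchors and catalytic subunits was not tested, and the rows of different genes may respond differently to the same change in RNA.

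In complex III, 7 of 9 members fell on day 1 (median -0.92), 8 on day 3 (-1.25) and 1 on day 7 (-0.81), and 8 on each day without both arrays. The catalytic pair are Cyc1, which carries the cytochrome c1 heme, and Uqcrfs1, the Rieske iron-sulfur protein. Cyc1 had signals of 12.51, 12.53, 12.93 and 12.47 in sham, 11.59, 11.97, 9.60 and 11.12 on day 1, 8.91, 11.52, 11.40 and 11.47 on day 3 and 11.96, 11.83, 11.82 and 11.57 on day 7. MI 1d 13 and MI 3d 31 lay far below the other arrays of their days, and the day 7 arrays were below sham without overlap. Its differences were -1.53 (SE 0.55, adjusted p = 0.0347), -1.78 (0.0171) and -0.81 (0.332), and without both arrays -1.04, -1.14 and -0.81.

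Uqcrfs1 read 8.89, 9.04, 8.98 and 8.76 in sham, 7.97, 8.04, 7.13 and 7.67 on day 1, 6.03, 7.92, 7.75 and 7.94 on day 3 and 7.97, 7.99, 8.05 and 7.96 on day 7, where the 4 arrays lay close together and below sham without overlap. Uqcrc1, a core protein, fell on days 1 and 3, with differences of -1.33 and -1.90, and so did Uqcr10, a small subunit beside cytochrome c1, with -1.65 and -1.52. Uqcrq, named for ubiquinone binding, was the 1 member called on day 7 with all arrays (-0.96, adjusted p = 0.0167). Uqcrb, named here after its values were seen, read 18.19 to 18.23 in sham and 18.08 to 18.28 over all arrays but MI 3d 31 (17.36). It was not called on any day. Its value was exactly 18.1969 on several arrays, among them sham 1, sham 2 and MI 7d 71, 72 and 74. Whether this row could show a fall was not tested.

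Complex IV, cytochrome c oxidase, had the lowest share of called members on day 3: 8 of 14 fell on day 1 (median -0.90), 9 on day 3 (-0.94) and 1 on day 7 (-0.47), and 11, 10 and 9 without both arrays. The 3 heart and muscle isoforms, Cox6a2, Cox7a1 and Cox8b, all fell on days 1 and 3, with medians of -1.65 and -2.36, while 2 of their 3 general counterparts, Cox6a1, Cox7a2 and Cox8a, fell on day 1 and 1 on day 3 (medians -1.0 and -0.37). Without both arrays 3 of 3 of each kind fell on day 1; on days 3 and 7 all 3 heart isoforms fell, against 1 and 2 general ones. Cox7a1 had signals of 17.08, 17.10, 17.33 and 17.11 in sham, 15.98, 16.12, 14.06 and 15.34 on day 1, 11.79, 15.74, 15.13 and 15.31 on day 3 and 15.95, 15.41, 15.77 and 15.44 on day 7, and MI 3d 31 was by far the lowest. Its general counterpart Cox7a2 had 14.05, 14.22, 14.06 and 14.15, then 13.28, 13.61, 12.15 and 13.13, then 11.75, 13.90, 13.46 and 13.34, then 13.59, 13.44, 13.92 and 13.32. The Cox7a1 differences were -1.78, -2.66 and -1.51 (SE 0.68; adjusted p = 0.0442, 0.00561 and 0.126), and without both arrays -1.34, -1.76 and -1.51, all called.

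Cox6a2 was the 1 complex IV member called on day 7 with all arrays. It read 16.48, 16.35, 16.34 and 16.18 in sham, 15.27, 15.67, 14.77 and 14.77 on day 1, 13.41, 14.78, 14.51 and 14.50 on day 3 and 15.16, 14.64, 14.67 and 14.31 on day 7. Its differences of -1.22, -2.04 and -1.64 (SE 0.28; adjusted p = 0.00324, 5.73e-05 and 0.000781) were called in both fits. Its general counterpart Cox6a1 read 12.66, 12.74, 12.56 and 12.71 in sham and 11.57, 12.96, 12.69 and 12.73 on day 3, where MI 3d 31 alone lay below sham; its day 3 difference of -0.18 became 0.13 without that array, and neither was called. Cox8b fell on days 1 and 3 (differences of -1.65 and -2.36), from 11.01, 10.88, 10.66 and 10.86 in sham to 6.08, 9.70, 8.97 and 9.20 on day 3. Cox8a read 12.34, 12.11, 12.32 and 12.31 in sham, 11.44, 11.71, 10.69 and 11.23 on day 1 and 11.13, 12.25, 12.22 and 12.01 on day 3, so that its difference of -1.0 on day 1 (adjusted p = 0.00587) was followed on day 3 by -0.37 (adjusted p = 0.249).

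The isoform pairs were compared within each array, as the log2 signal of the heart isoform minus that of the general isoform, where a scaling of the whole array cancels. The value itself sets 2 probes side by side and has no meaning as a ratio of amounts, but its change between groups can be tested. For Cox6a2 minus Cox6a1 it was 3.82, 3.61, 3.78 and 3.47 in sham, 3.06, 3.18, 3.15 and 2.45 on day 1, 1.85, 1.83, 1.82 and 1.77 on day 3 and 2.55, 2.14, 2.37 and 2.25 on day 7. MI 1d 13 and MI 3d 31 did not stand apart from the other arrays of their groups in this pair. The mean change was -0.71 on day 1, -1.86 on day 3 and -1.34 on day 7. For Cox7a1 minus Cox7a2 the values were 3.02, 2.88, 3.26 and 2.97 in sham, 2.70, 2.52, 1.91 and 2.20 on day 1, 0.04, 1.84, 1.67 and 1.97 on day 3 and 2.36, 1.97, 1.85 and 2.12 on day 7, with mean changes of -0.70, -1.65 and -0.96. For Cox8b minus Cox8a they were -1.33, -1.23, -1.67 and -1.45, then -1.81, -1.92, -2.34 and -2.21, then -5.05, -2.55, -3.25 and -2.81, then -2.30, -2.19, -1.77 and -1.78, with mean changes of -0.65, -1.99 and -0.59. In all 9 comparisons the 4 MI arrays lay below the 4 sham arrays. Each had a two-sided exact permutation p of 0.0286 (n = 4 and 4), the smallest this design can give, and 0.0286 after adjustment over the 9. Leaving out 1 array can take the adjusted exact permutation p past the threshold: without sham 2 all 9 were between 0.0514 and 0.0857, and for Cox8b minus Cox8a on day 1 it was 0.0571 without MI 1d 13, where the change was -0.56. It was also past the threshold in 3 comparisons without sham 1, 1 without sham 3, 2 without sham 4, and 1 each without MI 7d 71 and MI 7d 72, at 0.0571 at most.

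**Figure D4:**
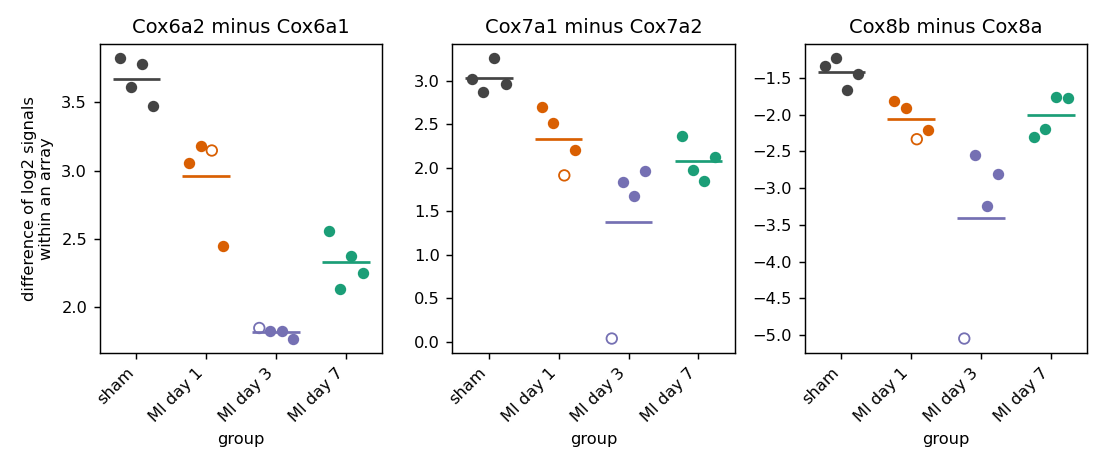
Difference within each array between the log2 signals of the heart isoform and the general isoform of 3 complex IV subunits (vertical axes), by group. Points are arrays, bars are means of 4, and open points are MI 1d 13 and MI 3d 31; every MI array lies below every sham array in each pair, and for Cox6a2 minus Cox6a1 the 4 day 3 arrays lie within 1.77 to 1.85.

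Among the other complex IV members, Cox7a2l, which helps complexes III and IV to associate, fell on day 1 (difference -1.51, adjusted p = 0.00459). It read 11.79, 11.47, 11.70 and 11.69 in sham, 10.44, 10.66, 9.36 and 10.14 on day 1, 9.41, 11.50, 11.08 and 10.97 on day 3 and 11.22, 11.46, 11.59 and 11.16 on day 7, so that days 3 and 7 overlapped sham. Without both arrays it was called on day 3 as well. Of the 6 members with neither a tissue isoform nor this role, 2 fell on day 1, 5 on day 3 and 0 on day 7 (medians -0.64, -0.79 and -0.44), and 4, 5 and 4 without both arrays. Cox6a1, Cox7c and the testis isoform Cox8c, whose signal lay near the negative controls, were not called on any day with all arrays.

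Because the heart isoforms fell further than the general ones, the 250 bases before the start of each gene are shown for the Cox7a1 and Cox8b pairs. They come from the RefSeq promoter table for GRCm38.p6 and run 5' to 3' on the gene's strand, with each CG in capitals. CG-rich promoters are typical of genes active in most cells. The table held no entry for Cox6a2.
Cox7a1 (chr7:30183921-30184170, plus strand): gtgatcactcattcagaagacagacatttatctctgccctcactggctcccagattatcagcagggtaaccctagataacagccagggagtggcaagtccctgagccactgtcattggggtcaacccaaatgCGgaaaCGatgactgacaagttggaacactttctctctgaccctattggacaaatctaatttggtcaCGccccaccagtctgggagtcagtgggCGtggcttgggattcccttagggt
Cox7a2 (chr9:79759854-79760103, minus strand): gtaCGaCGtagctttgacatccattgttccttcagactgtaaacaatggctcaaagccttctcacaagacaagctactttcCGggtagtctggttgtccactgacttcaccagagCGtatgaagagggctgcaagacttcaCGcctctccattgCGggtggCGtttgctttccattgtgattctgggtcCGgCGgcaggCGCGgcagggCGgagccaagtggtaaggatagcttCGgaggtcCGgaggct
Cox8b (chr7:140900447-140900696, minus strand): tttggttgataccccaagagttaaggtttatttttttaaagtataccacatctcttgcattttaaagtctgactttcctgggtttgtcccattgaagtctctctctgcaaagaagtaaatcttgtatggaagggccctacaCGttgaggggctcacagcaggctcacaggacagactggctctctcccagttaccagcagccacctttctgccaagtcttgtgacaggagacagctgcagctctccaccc
Cox8a (chr19:7217617-7217866, minus strand): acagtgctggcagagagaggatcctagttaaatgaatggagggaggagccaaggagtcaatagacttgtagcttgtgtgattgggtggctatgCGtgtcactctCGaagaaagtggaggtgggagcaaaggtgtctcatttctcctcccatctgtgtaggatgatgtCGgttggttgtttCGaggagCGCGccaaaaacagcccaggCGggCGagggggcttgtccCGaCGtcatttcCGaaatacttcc
The Cox7a1 window held 4 CG and the Cox7a2 window 14; the Cox8b window held 1 and the Cox8a window 11. Cox6a1, the third general isoform, had 26. The median was 6 over the 27025 genes with an entry and 14 over the 67 members with one. These counts describe the sequence and were not tested against the expression values.

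Complex V had 20 members, of which 16 fell on day 1 (median -0.79), 19 on day 3 (-1.07) and 4 on day 7 (-0.52). Without both arrays 18, 20 and 18 fell. These counts include Atp5sl, not classed as a subunit, which was called on each day in both fits. Its differences with all arrays were -0.71, -0.67 and -0.51. The F1 head makes ATP, and Atp5a1 and Atp5b are its alpha and beta subunits. Their differences were small. Atp5b read 16.05, 16.08, 16.05 and 16.08 in sham and 15.89, 15.90, 15.78 and 15.82 on day 1. It read 15.00, 15.88, 15.89 and 15.78 on day 3 and 15.90, 15.90, 15.90 and 15.90 on day 7. No MI array reached the sham range, yet apart from MI 3d 31 the gap was small. Atp5b was exactly 15.8994 on MI 1d 12 and on MI 7d 71, 72 and 73, and Atp5a1 was 17.1267 on all 4 day 7 arrays. Whether such repeated values compress the differences of these rows was not tested. The Atp5b differences were -0.22, -0.42 and -0.16 (SE 0.15) and those of Atp5a1 -0.34, -0.71 and -0.23 (SE 0.22), with day 3 called in both genes (adjusted p = 0.0371 and 0.0181). Both were called on all 3 days without MI 1d 13 and MI 3d 31.

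Atp5d, the delta subunit of the central stalk, fell more: it read 13.22, 13.39, 13.57 and 13.30 in sham, 12.58, 12.83, 11.65 and 12.13 on day 1, 10.83, 12.27, 12.30 and 12.13 on day 3 and 12.59, 12.56, 12.55 and 12.20 on day 7. The differences of -1.07, -1.49 and -0.90 were called on each day (adjusted p = 0.0119, 0.00133 and 0.0461). The ring of c subunits, which turns as protons pass, is encoded by Atp5g1, Atp5g2 and Atp5g3, and all 3 fell on days 1 and 3 (medians -0.80 and -1.16). Atp5g2 fell on the 3 days, with differences of -1.39, -1.39 and -1.04, but its row lies on chromosome 7 by its identifier while the gene lies on chromosome 15, so it may read a copy. The row of Atp5l, on chromosome 5 for a gene on chromosome 9, has the same doubt. The 4 peripheral stalk genes fell on days 1 and 3 (medians -0.77 and -1.10), and of the 5 membrane and dimer genes, 4 fell on day 1 and 5 on day 3. Atp5l2, a near-identical copy of Atp5l, was called on day 1 (-1.09) and not on day 3 (-1.07, adjusted p = 0.0536); without both arrays it was called on both days.

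Between MI days few members were called. No member was called between days 3 and 1, against 8.11% of all genes, or between days 7 and 3, against 12.6%; at 7 days against 1 day 2 were called higher and 0 lower, against 13.6% and 12.7% of all genes. The 2 were Cox7a2l (1.20, SE 0.37, adjusted p = 0.0282) and Ndufa4l2 (adjusted p = 0.0266). Ndufa4l2 lay below the negative-control median on all 4 day 1 arrays, so no size is given for its difference. The count of higher members was 0 without MI 1d 13, MI 1d 14 or MI 7d 71. It was 1 without MI 1d 12, MI 7d 72, MI 7d 73 or MI 7d 74, and 13 without MI 3d 31. The shares of all genes in these fits are not given. The day with the lowest mean was day 3 for 68 members, day 1 for 12 and day 7 for 1 with all arrays, and day 3 for 51 and day 1 for 24 without both arrays. Leaving out both arrays, 8 members were called between days 3 and 1, against 31.5% of all genes: Ndufs1, Ndufv1, Sdha, Cox6a2 and Atp5a1 were lower on day 3, and Cox6a1, Cox8a and Cox7a2l higher. At 7 against 3 days 4 were then called, against 20.6% of all genes, with Ndufs1, Sdhc and Atp5a1 higher and Cox6a1 lower on day 7.

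Members were also grouped by their sham signal. The median day 3 difference was -0.71 for the 18 members with a sham mean under 9, -1.28 for the 49 between 9 and 16 and -1.10 for the 14 above 16. Without both arrays it was -0.64, -0.88 and -0.62. The largest day 3 fall of a counted member, that of Cox7a1, was in the range above 16.

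Most genes of the assembly lists were called lower on days 1 and 3, as most subunit genes were. The shares of all genes called lower were 22.2%, 20.2% and 9.92% on days 1, 3 and 7 with all arrays and 24.7%, 20.9% and 19.3% without MI 1d 13 and MI 3d 31, and the same shares apply to the lists that follow. Of the assembly factors of complex I, 15 of 15 fell on day 1 (median -1.12), 15 on day 3 and 9 on day 7 (15 on each day without both arrays); the 2 with the largest differences were Ndufaf1 (-2.05 on day 1, -2.07 on day 3) and Tmem126b (-1.76 and -1.29). Of the complex III factors all 4 fell on each day, among them Bcs1l, which inserts the Rieske protein (-1.17, -0.91 and -0.72), and Ttc19 (-1.10, -1.13 and -0.71). For complex IV, 15 of 18 fell on day 1, 12 on day 3 and 6 on day 7 (16, 11 and 12 without both arrays), led by Higd2a (-3.45, -3.16 and -1.61, not called on day 7) and Taco1, which activates translation of a mitochondrial complex IV subunit (-2.22, -2.11 and -1.38). Complex V factors fell in 3 of 3 on days 1 and 3 and in 1 of 3 on day 7 (3 without both arrays), with Atpaf1 at -1.51 and Tmem70 at -1.32 on day 1. Both complex II factors, Sdhaf1 and Sdhaf2, fell on days 1 and 3, with day 1 differences of -0.53 and -0.54.

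The list of electron carriers and coenzyme Q named Cycs, Etfa, Etfb, Etfdh, Gpd2, Dhodh and Hccs besides coenzyme Q genes. Of the 18 genes counted in it, 11 fell on day 1, 15 on day 3 and 10 on day 7. Without MI 1d 13 and MI 3d 31 the counts were 13, 15 and 16. Among those that fell were Coq10a (-2.36, -2.64 and -1.41) and the methyltransferase gene Coq5 (-2.53, -2.47 and -0.89, the last not called). The kinase-like Adck4 was called higher on days 1 and 3 (0.18 and 0.23). The list for adenine nucleotide and phosphate exchange also held creatine and adenylate kinase genes. In it 6 of 11 fell on day 1, 7 on day 3 and 1 on day 7, with 1 higher on day 7. Without both arrays 8, 8 and 9 fell, with 1 higher on days 3 and 7. Muscle creatine kinase Ckm fell on days 1 and 3 (-1.61 and -2.58), as did the adenylate kinase gene Ak3 (-2.14 and -1.70). In the list for transcription and translation of mitochondrial DNA, 11 of 13 fell on day 1, 8 on day 3 and 8 on day 7 (10, 8 and 10 without both arrays), with Tfb1m at -1.77, -1.24 and -1.03 and Lrpprc at -1.20, -1.64 and -1.05. Among subunit genes outside the symbol patterns, Cox4i1 (-0.80, -1.14 and -0.75) and Ndufab1 (-1.01, -1.16 and -0.76) fell on each day. Per list and day, no more than 1 gene was called higher.

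Markers of several other cell types also changed after MI, not all in the same direction or on the same days. Of 12 neutrophil markers 10 were tested, and all 10 rose on days 1 and 3 in both fits. On day 7, 1 rose, and 3 without both arrays. The medians on days 1 and 3 were 4.77 and 2.82, and 4.57 and 1.85 without both arrays. In sham, 6 of the 12 lay below the negative-control median on every array. A marker could thus pass the filter through the MI arrays alone. The count of 10 is therefore not independent of the filter, and the medians are not sizes of change. The mean level of the 12 was 4.50 in sham, 9.23 on day 1, 6.99 on day 3 and 4.75 on day 7. On MI 3d 31 it was 9.35, against 6.12 to 6.26 on the other day 3 arrays. On MI 1d 13 it was 10.1, against 8.93 to 8.96 on the other day 1 arrays. Monocyte and macrophage markers rose in 11, 13 and 13 of 14 (medians 2.92, 3.71 and 2.95), and their mean level was 7.47 to 7.73 in sham and 9.90 to 11.4 on the MI arrays. Fibroblast markers rose in 0, 4 and 8 of 9 and fell in 4 on day 1. Without both arrays they rose in 2, 5 and 9 and fell in 4 on day 1. Of all genes, 24.9%, 23.5% and 14.9% were called higher on days 1, 3 and 7 with all arrays. That share is not given without both arrays, for these or the other marker lists. The general cardiomyocyte list fell in 3, 4 and 0 of 10 (medians -0.57, -0.86 and -0.17) and in 6, 4 and 4 without both arrays (medians -0.49, -0.34 and -0.17), with Myh6, Tnnt2, Atp2a2 and Pln set apart above 19, and its mean level was 14.4 on MI 3d 31 against 15.9 on each of the other day 3 arrays. The atrial list fell in 9, 9 and 1 of 10 (medians -1.36, -1.70 and -0.77) and in 9, 9 and 5 without both arrays (medians -1.33, -1.26 and -0.77). The 5 ventricular markers fell in 4, 4 and 2, and in 5, 4 and 3 without both arrays. All 7 lymphocyte markers on the array lay below the negative-control median on every array, and the part of any of these cell changes in the falls of the subunit genes was not tested. In tissue RNA, fewer cardiomyocytes and less subunit RNA per cardiomyocyte cannot be told apart.

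Of 8 endothelial markers 3, 1 and 0 were lower and 1, 2 and 1 higher on days 1, 3 and 7, with medians of -0.49, -0.18 and 0.44. Without MI 1d 13 and MI 3d 31, 3, 2 and 1 were lower and 0, 3 and 2 higher. Of 8 smooth muscle and pericyte markers 3, 3 and 1 were lower and 1, 0 and 2 higher, with medians of -0.17, -0.26 and 0.42, and without both arrays 3, 3 and 2 were lower and 1, 2 and 3 higher. On day 7 both medians were above 0; skeletal muscle markers fell in 2, 5 and 0 of 6, with medians of -0.14, -0.24 and -0.05 and 1 gene higher on days 3 and 7. Adipocyte and erythroid markers were tested in 2 and 1 genes, with 1 adipocyte gene lower on day 1 and no other call with all arrays; without both arrays the erythroid gene was also called lower on day 3.

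**Figure D5:**
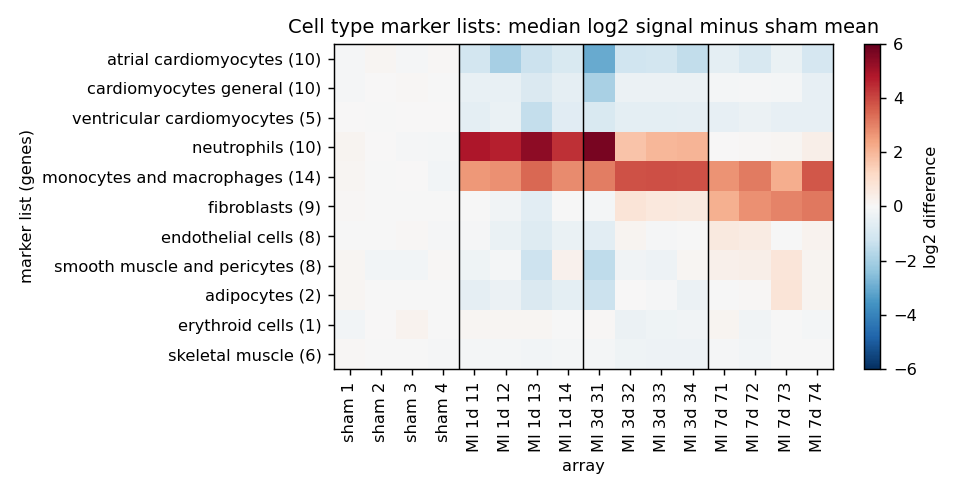
Median over the tested genes of each cell type marker list (number in brackets) of the log2 signal minus the sham mean, by array (columns). Red is above and blue below sham on a scale from -6 to 6; neutrophil genes are high on all day 1 arrays and on MI 3d 31 (5.69, against 1.70 to 2.03 on the other day 3 arrays), where the atrial list is lowest (-3.03).

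Respiratory chain promoters are known for sites of nuclear respiratory factor 1 (NRF1), and the 300-base RefSeq promoter windows (250 bases before to 50 after the start) were searched on both strands for motifs whose letters come from general knowledge of the factors. The NRF1 element TGCGCA was in 17 of 67 members (25.4%), against 8.79% of 27025 genes. The YY1 motif AAGATGGC was in 11 (16.4%, against 3.19%), 7 of them in complex I and 4 in complex V. An ETS motif, CCGGAAGT, was in 5 (7.46%, against 4.31%), and the estrogen-related receptor motif TNAAGGTCA in 2 (2.99%, against 1.43%). TGCGCA and CCGGAAGT contain CG, and the members' promoters held more CG than those of all genes (median 14 against 6 in the 250 bases before the start), so their shares are not compared at equal CG content. In 4 members the YY1 motif began 22 to 24 bases after the start, and these are shown as 30-base stretches of GRCm38.p6 on the gene's strand, with the motif in capitals.
Ndufa3 (chr7:3617384-3617413, plus strand): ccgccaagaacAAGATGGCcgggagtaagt
Ndufc1 (chr3:51408915-51408944, minus strand): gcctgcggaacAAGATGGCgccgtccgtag
Ndufs7 (chr10:80249462-80249491, plus strand): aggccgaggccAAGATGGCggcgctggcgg
Atp5j2 (chr5:145191500-145191529, minus strand): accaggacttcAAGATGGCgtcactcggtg
These 4 were chosen for the place of the motif. On day 3 their differences from sham were -1.28 for Ndufa3, -0.67 for Ndufc1, -1.45 for Ndufs7 and -0.29 for Atp5j2, with limma adjusted p-values of 0.00854, 0.00797, 0.00695 and 0.00521. These matches describe letters in a window, and no binding was measured.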

How the data were processed

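Signals of 16 single-colour arrays (4 per group) were used as log2 values as deposited, made with Affymetrix Expression Console per the submitters' processing notes; the version, background correction and normalisation are not stated. Mouse Genome 430 2.0 is the design named in the series' text, but the deposited rows are transcript clusters of another design, so the design is uncertain. Of 72688 rows, 30604 carried 1 symbol, 2146 several and the rest none. For 30145 genes the row with the highest mean was kept; genes above the array median on at least 4 of 16 arrays (18420) were tested with limma 3.58.1 in R 4.3.3 (1 mean per group, eBayes with a variance trend, Benjamini-Hochberg adjustment within each of 6 comparisons); the script was tested on simulated data. Isoform pairs were tested by exact permutation of arrays (Python 3.11.15, numpy 2.4.6). Of 22815 rows with a RefSeq match, 98.8% lay on the gene's chromosome. No 2 arrays were identical (highest pairwise correlation 0.997). The table gives no scan date or slide. Alternatives were quantile normalisation, centring, other filters, no trend, array weights, other rows and leaving out arrays. The members and lists were chosen with earlier results of these data known. Values are given for the leading 2 calls of each complex on each day, for members called between days, for the genes of the stated roles and isoform pairs, and for the leading 2 calls of each gene list. Array number limits the precision.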

Additional observations from a re-analysis of the deposited data

Results flagged for a closer look

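The complex medians, named genes and isoform pairs in each group made 140 sets of 4 arrays. In 24 of them 1 array lay farther from the rest than Dixon's 95% critical value for 4 samples. Chance gives about 1 in 20 for independent sets. These sets share arrays, and many genes were named for large differences in the same data, so the 2 rates cannot be compared. MI 3d 31 accounted for most. Its median deviation from sham was -2.57 in complex I, where the other day 3 arrays lay between -1.10 and -0.79, and -3.01 in complex II, where they lay between -0.99 and -0.88. Its log2 signals stood apart in Atp5a1 (15.72, others 16.92 to 16.97), Atp5b (15.00, others 15.78 to 15.89), Atp5d (10.83, others 12.13 to 12.30), Cox7a1 (11.79, others 15.13 to 15.74), Cyc1 (8.91, others 11.40 to 11.52), Ndufa8 (10.62, others 12.65 to 12.98), Ndufs1 (12.63, others 14.86 to 15.07), Ndufs8 (10.51, others 13.38 to 13.86), Ndufv1 (9.11, others 10.72 to 10.85), Sdha (12.67, others 14.27 to 14.40), Sdhb (11.15, others 12.49 to 12.61), Sdhc (8.49, others 10.37 to 10.56), Sdhd (11.63, others 14.62 to 14.74), Uqcrc1 (11.61, others 13.99 to 14.14) and Uqcrfs1 (6.03, others 7.75 to 7.94). Its within-array difference of Cox7a1 and Cox7a2 was 0.037, with the others at 1.67 to 1.97. The remaining cases on day 7 were Atp5d on MI 7d 74 (12.20, others 12.55 to 12.59), Ndufs1 on MI 7d 73 (15.69, others 15.28 to 15.31) and Atp5b on MI 7d 74. The last was flagged only because the other Atp5b values were equal (15.898, others 15.899). In sham they were Cox7a1 on sham 3 (17.33, others 17.08 to 17.11), Cox8a on sham 2 (12.11, others 12.31 to 12.34) and Cyc1 on sham 3 (12.93, others 12.47 to 12.53).

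By the limma test of day 7 against day 1, 2 members passed the threshold: Cox7a2l with a difference of 1.20 (SE 0.37, adjusted p = 0.0282) and Ndufa4l2 with a fitted 0.40 (SE 0.12, adjusted p = 0.0266). Ndufa4l2 lay below the negative-control median on all 4 day 1 arrays, so its fitted value is not a measured change. The count of 2 was 0 without MI 1d 13, MI 1d 14 or MI 7d 71. The Cox7a2l values of all 4 day 7 arrays lay above those of all 4 day 1 arrays.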

How the results depend on the processing

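Every named member tried and called lower than sham stayed below sham with rescaling, no trend, array weights and arrays left out. Some named members, among them Atp5sl, Ndufa3, Ndufc1, Ndufs7 and Atp5j2, were not tried. Other filters and other rows were not tried for single named members. The day 3 counts stayed within 1.5 times their value under all alternatives run. The day 1 and day 7 counts and those between MI days did not. With all arrays the counts called lower were 64, 73 and 18 on days 1, 3 and 7. Over all 18420 genes tested, 4085, 3720 and 1827 were called lower on those days. Quantile normalisation gave 6045, 5431 and 2869 for all genes, and centring gave 5536, 5650 and 3513. The share of all genes is not given for array weights, other filters or single arrays left out, except where stated above. Quantile normalisation gave 4 for complex II on day 1, 38 for all members on day 7, 21 for complex I on day 7, 1 for complex II on day 7, 3 for complex III on day 7, 4 for complex IV on day 7, 9 for complex V on day 7, 2 for day 3 against day 1, lower and 2 for day 7 against day 3, higher. Centring each array on its median gave 4 for complex II on day 1, 32 for all members on day 7, 3 for complex III on day 7, 4 for complex IV on day 7 and 9 for complex V on day 7. Without MI 1d 13 and MI 3d 31 together the values were 4 for complex II on day 1, 72 for all members on day 7, 33 for complex I on day 7, 4 for complex II on day 7, 8 for complex III on day 7, 9 for complex IV on day 7, 18 for complex V on day 7, 5 for day 3 against day 1, lower, 3 for day 3 against day 1, higher, 1 for day 7 against day 3, lower, 3 for day 7 against day 3, higher, 1 for day 7 against day 1, lower, 6 for day 7 against day 1, higher and -0.557 for Cox8b minus Cox8a on day 1. Weighting arrays by their quality gave 4 for complex II on day 1, 72 for all members on day 7, 33 for complex I on day 7, 4 for complex II on day 7, 7 for complex III on day 7, 10 for complex IV on day 7, 18 for complex V on day 7, 4 for day 3 against day 1, lower, 3 for day 3 against day 1, higher, 3 for day 7 against day 3, higher and 11 for day 7 against day 1, higher. Without the filter on low values, complex I on day 7 had 7. Leaving out each array in turn gave 27 to 78 for all members on day 1, 14 to 33 for complex I on day 1, 1 to 4 for complex II on day 1, 3 to 8 for complex III on day 1, 3 to 13 for complex IV on day 1, 6 to 20 for complex V on day 1, 7 to 53 for all members on day 7, 4 to 28 for complex I on day 7, 0 to 3 for complex II on day 7, 1 to 5 for complex III on day 7, 1 to 5 for complex IV on day 7, 1 to 12 for complex V on day 7, 0 to 3 for day 3 against day 1, higher and 0 to 13 for day 7 against day 1, higher. The changes within isoform pairs ranged, over the same settings, from -0.788 to -0.543 for Cox6a2 minus Cox6a1 on day 1, -1.92 to -1.8 for Cox6a2 minus Cox6a1 on day 3, -1.42 to -1.28 for Cox6a2 minus Cox6a1 on day 7, -0.821 to -0.56 for Cox7a1 minus Cox7a2 on day 1, -1.85 to -1.21 for Cox7a1 minus Cox7a2 on day 3, -1.05 to -0.88 for Cox7a1 minus Cox7a2 on day 7, -0.731 to -0.557 for Cox8b minus Cox8a on day 1, -2.28 to -1.45 for Cox8b minus Cox8a on day 3 and -0.669 to -0.49 for Cox8b minus Cox8a on day 7, all below 0, with adjusted exact permutation p-values of up to 0.0857. The arrays behind the extremes were mainly MI 1d 13 and MI 3d 31, and MI 7d 74 and the sham arrays for the lowest day 7 and day 1 counts; the cause was not tested.

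Both rescalings moved all genes: the share of calls that were lower, 47.1%, 46.2% and 40.0% on days 1, 3 and 7, became 63.8%, 62.3% and 56.1% with quantile normalisation and 61.5%, 63.1% and 62.1% with centring, which put the day 7 median over all genes at -0.11. Among named members, in the settings tried for them, signs turned only in genes not called. Cox6a1 on day 3 was -0.338 to 0.126 when each array was left out in turn, and 0.0761 with array weights. The 0.126 was without MI 3d 31, with or without MI 1d 13. Ndufa4l2 on day 3 was -0.0343 with quantile normalisation, -0.0625 with centring and -0.0655 with array weights. It was -0.0395 without MI 3d 31, with or without MI 1d 13, and up to 0.124 with another array left out. Reading Atp5l and Atp5g2 from the rows on their own chromosomes was chosen after seeing the data. No paired analysis was possible because the groups share no replicate numbers. Signals near the ceiling or the negative controls limit what a difference can show.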
